A study of Mus musculus with 6 samples.

Results

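Here 42 genes of the integrated stress response (ISR) and of amino acid supply were followed in sorted mouse cardiomyocytes (CMs) that overexpressed serum response factor (SRF). The genes were picked from a table of 23337 genes by what they are known to do, in 5 role groups: 11 regulators, 10 amino acid and one-carbon enzymes, 5 amino acid transporters, 3 secreted factors along with the receptor gene Vldlr, and 12 aminoacyl-tRNA synthetases. They were picked with earlier results of the same comparison known, so the differences between groups given for them are descriptions, and no p-value is given for the set. Wildtype mice on a mixed background received AAV9 subcutaneously at postnatal day 1 (P1), at 5e8 viral genomes per g. The SRF-OE group received AAV9-cTNT-SRF-2A-GFP, in which the cardiac troponin T promoter drives SRF and GFP, joined by a 2A peptide, in CMs, and the GFP group received the control AAV-GFP. The dose was a mosaic one that reaches only some CMs, and GFP+ cells were sorted at P14 after retrograde collagenase perfusion of the heart, so both groups carried the virus and GFP and went through the same dissociation. The question was how SRF overexpression alters the transcriptome of maturing CMs.

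The ISR starts with kinases that sense lack of amino acids, misfolded protein, double-stranded RNA or heme deficiency and phosphorylate the translation initiation factor eIF2. General translation then slows, while the mRNA of the transcription factor ATF4 is translated better. ATF4 pairs with C/EBP-type proteins on C/EBP-ATF response elements (CAREs) of genes for amino acid import, serine and asparagine synthesis, mitochondrial folate enzymes and tRNA charging, and in heart muscle the response is best known from mitochondrial disease, in which GDF15 and FGF21 are secreted. SRF itself binds another element, the CArG box.

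The promoters of the members are shown first, since some of them hold the element that the ATF4 literature rests on. The genes were picked as known genes of the response, a class defined in part through such elements, so the shares that follow are descriptions. RefSeq promoters of GRCm38.p6, from 250 bases before to 50 bases after the gene start, were at hand for 36 of the 42 members and for 27025 genes in all. The CARE core TGATGNAA, searched on both strands, was present in 14 of the 36 member promoters (38.9%, 95% Wilson interval 24.8 to 55.1%) and in 1219 of all 27025 promoters (4.51%). The longer form in which the core is followed by A or T was present in 8 of 36 (22.2%) and in 2.43% of all promoters. The cyclic AMP response element TGACGTCA was found in 0 of 36 member promoters (upper bound of the interval 9.64%) and in 2.03% of all, and the CArG box of SRF in 0 of 36 and in 1.81% of all. A match is a string of letters in this window and not a measured binding site. The promoters that held the core were those of Atf3, Trib3, Chac1, Nupr1, Asns, Pycr1, Slc7a11, Fgf21, Vldlr, Aars, Gars, Iars, Tars and Yars.

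Below are windows of 30 bases around the core, 5′ to 3′ on the strand of the gene, for the 5 holders with the highest level per length. The core, or its reverse complement, is in capitals, and the number after the gene is the position of its first base from the gene start.
Gars, chr6:55037960-55037989, plus strand, -30: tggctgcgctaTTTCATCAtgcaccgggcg
Atf3, chr1:191183425-191183454, minus strand, -110: ccttctcgcacTTGCATCAccaagtccgcg
Vldlr, chr19:27216809-27216838, plus strand, -200: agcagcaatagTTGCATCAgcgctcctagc
Iars, chr13:49682126-49682155, plus strand, 8: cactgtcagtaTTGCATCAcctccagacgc
Yars, chr4:129189895-129189924, plus strand, 4: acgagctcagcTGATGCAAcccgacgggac

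Nupr1, Trib3 and Asns, chosen after their values were seen, come from lower in that order, and their windows are shown so that they can be set beside those above. The promoters of Gdf15 and Phgdh, which also had large differences in expression, held no core.
Nupr1, chr7:126625562-126625591, minus strand, -110: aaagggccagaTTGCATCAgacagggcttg
Trib3, chr2:152344028-152344057, minus strand, 15: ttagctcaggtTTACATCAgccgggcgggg
Asns, chr6:7693214-7693243, minus strand, -23: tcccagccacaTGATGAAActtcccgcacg
The 250 bases before the start of Asns and of Nupr1 follow, with the core again in capitals, because these genes are among those whose level differed most between libraries.
Asns, chr6:7693210-7693459, minus strand: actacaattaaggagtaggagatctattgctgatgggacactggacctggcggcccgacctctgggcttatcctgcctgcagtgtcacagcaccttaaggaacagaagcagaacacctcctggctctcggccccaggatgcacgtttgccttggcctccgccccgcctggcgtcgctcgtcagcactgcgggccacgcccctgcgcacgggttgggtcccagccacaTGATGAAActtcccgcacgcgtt
Nupr1, chr7:126625471-126625720, minus strand: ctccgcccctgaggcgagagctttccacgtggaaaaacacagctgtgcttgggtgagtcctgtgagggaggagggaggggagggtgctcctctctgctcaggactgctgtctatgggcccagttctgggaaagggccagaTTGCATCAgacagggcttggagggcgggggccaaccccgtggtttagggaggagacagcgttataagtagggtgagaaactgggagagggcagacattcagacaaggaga

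The same core stood in the promoters of genes with large and with small differences in expression. Among the 14 holders, 13 passed the filter on low counts and had a median log2 fold change of 0.43, and 9 of the 13 had a value above 0 (53.3% of all genes). That median is the value of Atf3, which ran from -0.58 to 1.01 when single libraries were left out. The 22 members whose promoter lacked the core had a median of 0.07, with 13 above 0, and the 6 members without a promoter in the table had a median of 0.22. Without the library labelled GFP1, whose Srf level goes against its label, these medians were 0.33, 0.09 and 0.32. Nupr1, at 2.11, and Vldlr, at -0.35, both held TTGCATCA upstream of the RefSeq start. For both genes that start lies inside the interval of the GENCODE annotation, so the core does too.

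**Figure D1:**
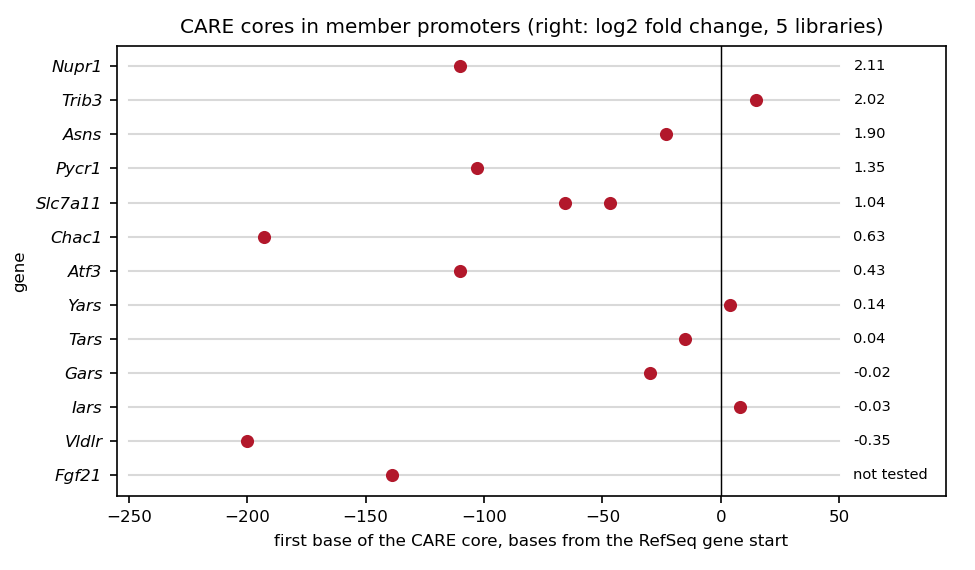
Position of each CARE core in the promoters of 13 of these members, in bases from the RefSeq gene start, with the log2 fold change (SRF-OE over GFP, 5 libraries) of the gene printed at the right. Each dot is the first base of 1 match, grey lines span the 300 base window, and cores lie on both sides of the start, from -200 in Vldlr to 15 in Trib3.

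Labels list 3 SRF-OE and 3 GFP libraries, but the column of SRF-OE replicate 1 holds gene lengths, which leaves 5 libraries of counts, SRF-OE replicates 2 and 3 and GFP replicates 1 to 3, with totals of 14137433 to 23159631 counts. Srf was at 360 and 748 CPM (counts scaled for library size with edgeR's TMM factors) in SRF-OE and at 67.2 and 85.1 CPM in GFP 2 and GFP 3, but at 338 CPM in the library labelled GFP1, at odds with that label. Values are given under the names of the table's columns, where gene symbols stand under the heading Chr and gene lengths under SRF-OE replicate 1. Whether these names are displaced against the columns, which would change the library and the number that a value belongs to, was not tested. Counts of calls are given for the 5 libraries as labelled and again without the library labelled GFP1, as are the differences of the members the results turn on. The sorted cells had 96820 to 169700 CPM summed over 10 cardiomyocyte markers. Nothing in the labels says whether the libraries came from separate animals, so p-values measure only the spread between these libraries, and no exact permutation test of a single gene can go under 0.1 with 2 against 3 libraries, or under 0.33 with 2 against 2. Xist was at 147 CPM in SRF-OE 2 and 88.8 CPM in GFP 2 and under 1 CPM in the other libraries, so each group had 1 library with Xist.

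Of the 42 members, 41 passed edgeR's filter on low counts in the 5 libraries, the exception being Fgf21, and 40 passed without the library labelled GFP1, with Cth also left out. With the 5 libraries, 0 members were called higher and 0 lower at an adjusted p under 0.05 in edgeR's quasi-likelihood test, as for all 13754 genes tested (0.0% higher and 0.0% lower). The smallest adjusted p of a member was 0.353. At an unadjusted p under 0.05, 8 members were higher (background 6.35% of genes) and 2 lower (7.59%), and DESeq2 called 0 members higher (0.943% of the 1167 genes it gave an adjusted p) and 1, Slc38a2, lower (18.3%), having given an adjusted p to only 4 members.

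Without the library labelled GFP1, 6 members were called higher in SRF-OE at that cutoff: Nupr1, Trib3, Asns, Mthfd2, Slc7a5 and Gdf15. Of these, Nupr1 passed the filter on low counts only through the SRF-OE libraries. The background was 1.98% of 13397 genes. In the same fit 0 members fell (0.97% of genes), while at an unadjusted p under 0.05 there were 13 higher (14.4%) and 4 lower (14.0%). The adjusted p of the 6 lay between 0.0423 and 0.0499, close under the cutoff. The scaling and the filter on low counts moved this count, to 2 with upper quartile scaling (0.657% of genes), to 1 where every library had to hold at least 10 counts (0.453%), which removed Nupr1 and Trib3 from the test, and to 13 with no filter (7.75%). DESeq2 on the same 4 libraries called 8 members higher (6.29% of genes), those 6 with Atf5 and Cebpg, and 1 lower (6.14%), Slc38a2.

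Expression in both SRF-OE libraries lay above all 3 GFP libraries for 14 of 41 members (background 16.1%) and below them for 5 (17.3%). Without the library labelled GFP1 these were 17 of 40 (30.8%) and 8 (30.2%). The library labelled GFP1 lay above both other GFP libraries for 22 of 41 members (40.5% of genes) and below both for 12 (39.2%). A log2 fold change above 0 was found for 26 of 41 members (53.3% of genes). The median over the members was 0.14, beside 0.03 over all genes, and without the library labelled GFP1 it was 0.18 beside 0.04. That median rested on single libraries: it was -0.03 without SRF-OE 3, 0.30 without SRF-OE 2, 0.04 without GFP 2 and 0.23 without GFP 3.

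**Figure D2:**
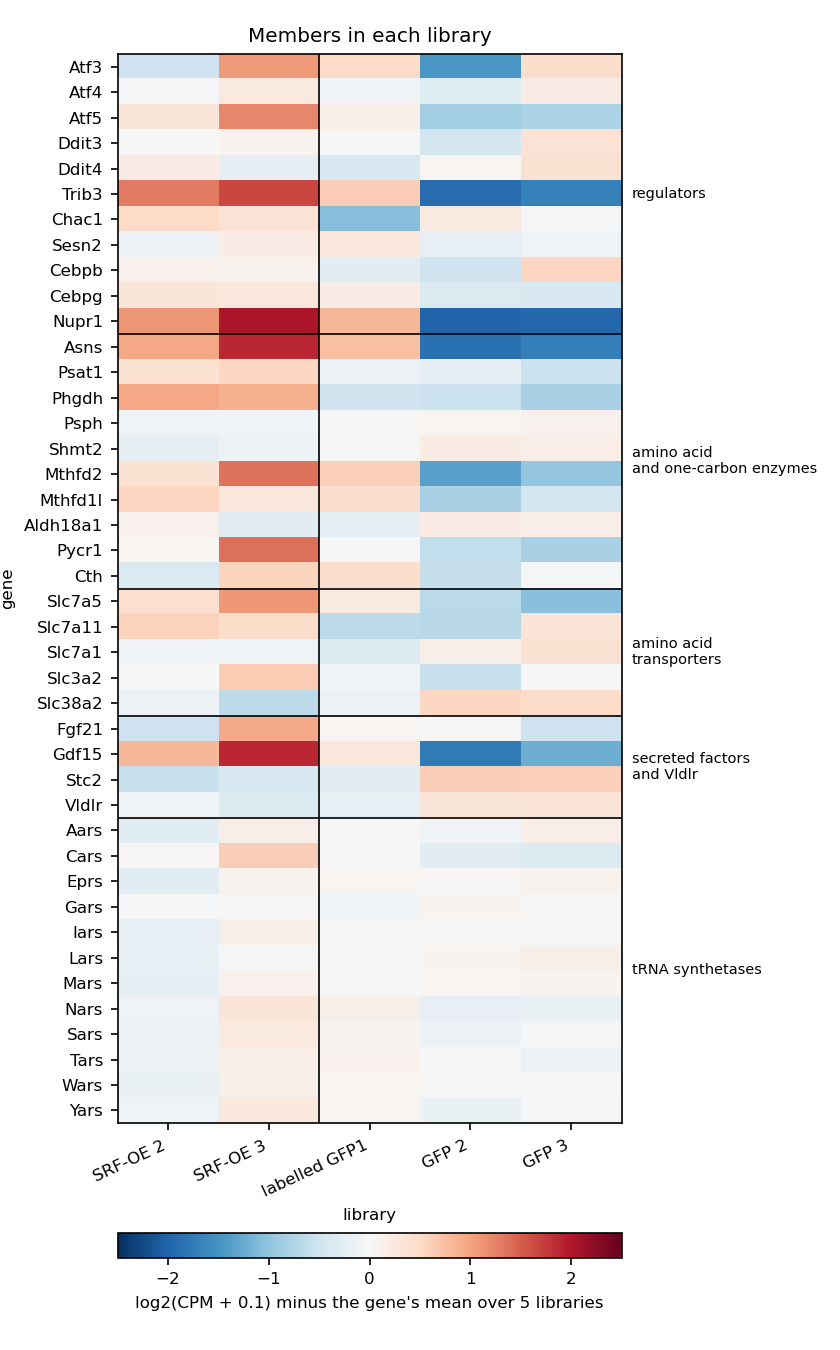
Level of the 42 members (rows) in the 5 libraries (columns), as log2(CPM + 0.1) minus the mean of that gene over the libraries, with red for higher and blue for lower. Nupr1, Trib3, Asns, Mthfd2 and Gdf15 are blue in GFP 2 and GFP 3 and red in the 3 other libraries, while the tRNA synthetases stay near white.

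Among the regulators, Nupr1 and Trib3 had the largest differences between the groups, and Atf4, Ddit3, Ddit4 and Sesn2 were among those with the smallest. Atf4, the central transcription factor, was at 95.2 and 118 CPM in SRF-OE, 93.1 CPM in the library labelled GFP1, and 80.0 and 114 CPM in GFP 2 and GFP 3. The groups overlapped, and its log2 fold change was 0.15 ± 0.18 (SE), or 0.14 without the library labelled GFP1. ATF4 is controlled in large part by translation, which RNA counts do not measure.

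Trib3 encodes a pseudokinase that is induced by ATF4 and CHOP. Its level was 6.30 and 8.13 CPM in SRF-OE, 3.90 CPM in the library labelled GFP1, and 0.596 and 0.710 CPM in GFP 2 and GFP 3, from 13 and 9 counts. Both SRF-OE libraries lay above every GFP library, and the library labelled GFP1 lay between them and the other GFP libraries. The log2 fold change was 2.02 ± 0.76 (SE, adjusted p = 0.357) with 5 libraries and 3.48 ± 0.35 (SE, adjusted p = 0.0423) with the library labelled GFP1 left out, an 11.1-fold difference. The lowest value when 1 library was left out was 1.60, without GFP 2. The gene lies on chromosome 2 of GRCm38, from 152337422 to 152344032.

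Nupr1, a small stress-induced chromatin protein, was at 2.72 and 5.33 CPM in SRF-OE, 2.23 CPM in the library labelled GFP1, and 0.229 and 0.237 CPM in GFP 2 and GFP 3. It was called on few reads, 5 and 3 counts in those last libraries, with 95% Poisson intervals of 0.0745 to 0.535 and 0.0488 to 0.692 CPM that cover counting error only. Even the upper ends of these intervals lay under the lower ends of the other 3 libraries, 1.64 CPM or more. Over GFP its log2 fold change reached 2.11 ± 0.92 (SE, adjusted p = 0.367) with 5 libraries, 4.09 ± 0.57 (SE, adjusted p = 0.0473) with the library labelled GFP1 left out, and 1.53 without SRF-OE 3. With the 5 libraries it passed the filter on low counts only with the help of the SRF-OE libraries. With the library labelled GFP1 left out it passed only through the SRF-OE libraries, so its values and its call are descriptions only. Nupr1 lies on chromosome 7, from 126623249 to 126630861.

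Atf3, an ATF family factor that is also an immediate early gene, was spread widely within each group. It was at 41.3 and 124 CPM in SRF-OE, 82.5 CPM in the library labelled GFP1, and 21.4 and 80.5 CPM in GFP 2 and GFP 3. The groups overlapped, and the log2 fold change of 0.43 ± 0.65 (SE) was -0.58 without SRF-OE 3 and 1.01 without SRF-OE 2. Immediate early genes of the same libraries are given further on.

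Ddit3, which encodes CHOP, the factor linked to cell death in prolonged stress, was at 19.9 and 21.5 CPM in SRF-OE, 20.3 CPM in the library labelled GFP1, and 14.6 and 26.0 CPM in GFP 2 and GFP 3. All SRF-OE values lay inside the GFP range, with a log2 fold change of 0.03 ± 0.25 (SE). Ddit3 shares 68 bp of exon with Mars on the opposite strand, and since the strand setting of the counting is not stated, reads there cannot be assigned with certainty.

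Ddit4, an mTORC1 inhibitor also known as REDD1, was the 1 regulator with a value below 0, at 10.9 and 8.09 CPM in SRF-OE, 7.22 CPM in the library labelled GFP1, and 9.86 and 12.4 CPM in GFP 2 and GFP 3. The groups overlapped and the log2 fold change was -0.04 ± 0.28 (SE).

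In the remaining regulators, Atf5, Cebpg and Chac1 stood above all GFP libraries. Atf5, a relative of ATF4 linked to the mitochondrial unfolded protein response, had a log2 fold change of 1.27 ± 0.43 (SE, adjusted p = 0.353), and 1.70 ± 0.39 (SE, adjusted p = 0.0642) with the library labelled GFP1 left out. Without SRF-OE 3 it was 0.72, and its exons share 82 bp with opposite-strand genes. Cebpg, a dimer partner of ATF4, had 0.46 ± 0.21 (SE), and Chac1, which breaks down glutathione, 0.63 ± 0.39 (SE), or 0.69 and 0.33 without the library labelled GFP1. Sesn2, which inhibits mTORC1 when leucine is scarce, had 0.03 ± 0.23 (SE), and Cebpb, another C/EBP factor, 0.11 ± 0.30 (SE). Without the library labelled GFP1, 2 of the 11 regulators rose (1.98% of all genes) and 0 fell (0.97%). The 2 that rose were Trib3 and Nupr1, and Nupr1 passed the filter on low counts there only through the SRF-OE libraries. In that fit 10 of 11 had a value above 0, as with the 5 libraries, where 53.3% of all genes did.

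**Figure D3:**
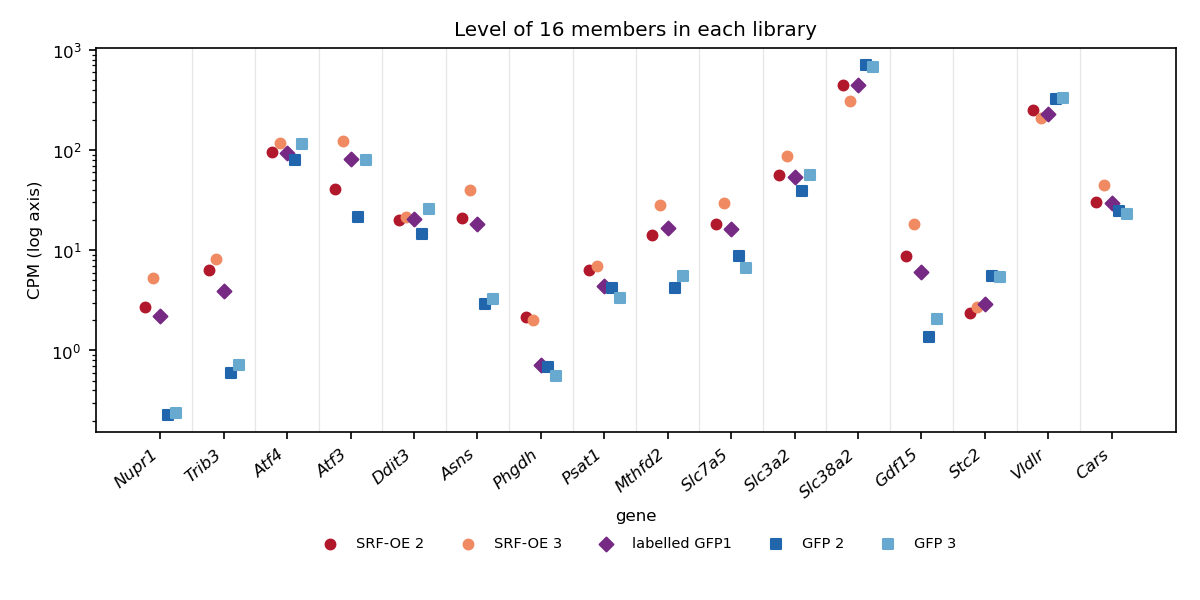
CPM on a log axis for 16 members in each of the 5 libraries, with circles for SRF-OE, a diamond for the library labelled GFP1 and squares for GFP 2 and GFP 3. The diamond lies near the circles for Asns, Nupr1, Slc38a2 and Vldlr and near the squares for Phgdh, and all 5 symbols lie close together for Atf4 and Ddit3.

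Among the enzymes, Asns, Phgdh, Pycr1 and Mthfd2 had the highest log2 fold changes, and Psph, Shmt2 and Aldh18a1 had values below 0. Asns makes asparagine from aspartate and glutamine and is the best known ATF4 target. It was at 21.2 and 40.2 CPM in SRF-OE, 18.3 CPM in the library labelled GFP1, and 2.89 and 3.24 CPM in GFP 2 and GFP 3. The SRF-OE mean was 30.7 ± 13.4 CPM (SD, n = 2). That of the 3 GFP libraries was 8.16 ± 8.82 CPM (SD), or 3.06 ± 0.245 CPM (SD, n = 2) once the library labelled GFP1 was left out. Its log2 fold change reached 1.90 ± 0.79 (SE, adjusted p = 0.359) with 5 libraries, 3.34 ± 0.36 (SE, adjusted p = 0.0423) with the library labelled GFP1 left out, a 10.1-fold difference, and 1.35 without SRF-OE 3. Asns lies on chromosome 6, from 7675169 to 7693254.

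Phgdh, the first enzyme of serine synthesis, was low and showed little spread within groups. It was at 2.14 and 2.01 CPM in SRF-OE, 0.713 CPM in the library labelled GFP1, and 0.688 and 0.553 CPM in GFP 2 and GFP 3. Here the library labelled GFP1 stood with the other GFP libraries, unlike for Asns. For Phgdh the log2 fold change was 1.65 ± 0.38 (SE, adjusted p = 0.353), it was 1.72 ± 0.43 (SE, adjusted p = 0.0722) with the library labelled GFP1 left out, and it stayed between 1.56 and 1.72 whichever library was left out. With the library labelled GFP1 left out, Phgdh passed the filter on low counts only with the help of the SRF-OE libraries.

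Psat1, the next enzyme of that path, was at 6.42 and 6.995 CPM in SRF-OE, 4.42 CPM in the library labelled GFP1, and 4.18 and 3.31 CPM in GFP 2 and GFP 3. It too kept the library labelled GFP1 beside the GFP libraries, with a log2 fold change of 0.75 ± 0.24 (SE, adjusted p = 0.353) that ranged from 0.64 to 0.84 when single libraries were left out. Psph, which completes serine synthesis, was at 10.6 and 10.7 CPM in SRF-OE, 11.6 CPM in the library labelled GFP1, and 11.7 and 12.2 CPM in GFP 2 and GFP 3. The groups did not overlap, but the difference was small, with a log2 fold change of -0.15 ± 0.17 (SE), and its exons share 452 bp with Cct6a on the other strand.

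Mitochondrial folate enzymes differed from each other. Mthfd2, which oxidises methylene-tetrahydrofolate in mitochondria and is scarce in most adult tissues, was at 14.2 and 28.2 CPM in SRF-OE, 16.6 CPM in the library labelled GFP1, and 4.22 and 5.53 CPM in GFP 2 and GFP 3. The library labelled GFP1 lay between both SRF-OE values, so the groups overlapped as labelled. The log2 fold change was 1.27 ± 0.60 (SE, adjusted p = 0.385) with 5 libraries, 2.14 ± 0.37 (SE, adjusted p = 0.0499) with the library labelled GFP1 left out, and 0.68 without SRF-OE 3. Shmt2, the mitochondrial enzyme that takes the carbon from serine, was at 54.6 and 59.0 CPM in SRF-OE, 65.9 CPM in the library labelled GFP1, and 73.4 and 72.9 CPM in GFP 2 and GFP 3. Both SRF-OE libraries lay below all GFP libraries, with a log2 fold change of -0.32 ± 0.12 (SE, adjusted p = 0.357) and of -0.36 without the library labelled GFP1. Mthfd1l, which releases formate, had 0.62 ± 0.49 (SE), or 1.14 without the library labelled GFP1.

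Proline and cysteine enzymes were represented by 3 members. Pycr1, which makes proline, had a log2 fold change of 1.35 ± 0.52 (SE, adjusted p = 0.357) from 10 to 90 counts a library, and 1.67 without the library labelled GFP1. SRF-OE 3 was at 3.94 CPM and SRF-OE 2 only just above the 1.47 CPM of the library labelled GFP1, and the log2 fold change was 0.48 without SRF-OE 3 and 1.87 without SRF-OE 2. Aldh18a1, which starts proline synthesis from glutamate, had -0.13 ± 0.20 (SE). Cth, which makes cysteine, had 4 to 12 counts a library and a log2 fold change of 0.25 ± 0.70 (SE). Without the library labelled GFP1, 2 of the 9 enzymes tested rose (1.98% of all genes) and 0 fell (0.97%).

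Among the transporters, Slc7a5 and Slc38a2 lay on opposite sides. Slc7a5, the LAT1 subunit that imports leucine and other large neutral amino acids, was at 18.3 and 29.5 CPM in SRF-OE, 16.2 CPM in the library labelled GFP1, and 8.72 and 6.71 CPM in GFP 2 and GFP 3. Both SRF-OE libraries lay above all GFP libraries. The log2 fold change was 1.18 ± 0.39 (SE, adjusted p = 0.353) with 5 libraries, 1.63 ± 0.29 (SE, adjusted p = 0.0499) with the library labelled GFP1 left out, a 3.10-fold difference, and 0.78 without SRF-OE 3. It lies on chromosome 8, from 121881150 to 121907694.

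Slc3a2, the heavy chain that carries SLC7A5 and SLC7A11 to the membrane, was at 56.8 and 87.9 CPM in SRF-OE, 54.5 CPM in the library labelled GFP1, and 38.6 and 56.4 CPM in GFP 2 and GFP 3. The lower SRF-OE value exceeded the highest GFP value only slightly, and the log2 fold change was 0.54 ± 0.24 (SE, adjusted p = 0.371), or 0.62 without the library labelled GFP1 and 0.18 without SRF-OE 3. On the scale of level per length, which divides counts by gene length and scales every library to the same total, the ratio of Slc7a5 to Slc3a2 was 0.272 and 0.282 in SRF-OE, 0.250 in the library labelled GFP1, and 0.190 and 0.1001 in GFP 2 and GFP 3.

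Slc38a2, the SNAT2 carrier of small neutral amino acids, was the transporter with the largest difference in the other direction. It was at 442.5 and 311 CPM in SRF-OE, 443.5 CPM in the library labelled GFP1, and 700 and 672 CPM in GFP 2 and GFP 3. The library labelled GFP1 lay just above the higher SRF-OE library and far from the other GFP libraries. The log2 fold change was -0.68 ± 0.26 (SE, adjusted p = 0.357), and -0.86 ± 0.19 (SE, adjusted p = 0.0638) with the library labelled GFP1 left out, and 7121 to 15255 counts a library stood behind it.

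Slc7a11, the cystine carrier xCT, was barely detected, at 0.578 and 0.525 CPM in SRF-OE, 0.190 CPM in the library labelled GFP1, and 0.184 and 0.474 CPM in GFP 2 and GFP 3, from 4 to 12 counts. Its groups did not overlap, but with a log2 fold change of 1.04 and a standard error of 0.64 the difference was not resolved at this depth. It passed the filter on low counts only through the SRF-OE libraries. Slc7a1, the arginine and lysine carrier CAT1, was at 22.9 and 22.5 CPM in SRF-OE, 19.2 CPM in the library labelled GFP1, and 26.8 and 31.7 CPM in GFP 2 and GFP 3. The SRF-OE values lay within the GFP range, with a log2 fold change of -0.19 ± 0.22 (SE).

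Of the secreted factors, Gdf15 rose without the library labelled GFP1. Gdf15, a stress cytokine that acts on the brainstem receptor GFRAL to reduce food intake, was at 8.79 and 18.4 CPM in SRF-OE, 6.03 CPM in the library labelled GFP1, and 1.38 and 2.05 CPM in GFP 2 and GFP 3. Both SRF-OE libraries lay above all GFP libraries, and the library labelled GFP1 lay nearer to SRF-OE 2 than to the other GFP libraries. The log2 fold change was 2.09 ± 0.63 (SE, adjusted p = 0.353) with 5 libraries, 3.02 ± 0.45 (SE, adjusted p = 0.0473) with the library labelled GFP1 left out, an 8.12-fold difference, and 1.45 without SRF-OE 3. Gdf15 lies on chromosome 8, from 70629393 to 70632456.

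Fgf21, the other mitochondrial stress hormone, was not detectable at a useful depth. It had 0 and 4 counts in SRF-OE, 1 count in the library labelled GFP1, and 1 and 0 counts in GFP 2 and GFP 3. With the limit of a count of 0 set at 3 counts, a 0 allows up to 0.173 CPM in SRF-OE 2 and 0.237 CPM in GFP 3, and no fold change was computed.

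Stc2, a secreted glycoprotein induced by ER stress, and Vldlr, the very low density lipoprotein receptor, had values below 0. Stc2 was at 2.37 and 2.71 CPM in SRF-OE, 2.90 CPM in the library labelled GFP1, and 5.51 and 5.45 CPM in GFP 2 and GFP 3. Its groups did not overlap, with a log2 fold change of -0.85 ± 0.37 (SE, adjusted p = 0.366) and of -1.10 ± 0.28 (SE, adjusted p = 0.0765) with the library labelled GFP1 left out. Vldlr was at 253 and 209 CPM in SRF-OE, 230 CPM in the library labelled GFP1, and 325 and 329 CPM in GFP 2 and GFP 3. The library labelled GFP1 lay between both SRF-OE values, and the log2 fold change was -0.35 ± 0.20 (SE, adjusted p = 0.432), and -0.50 (adjusted p = 0.0885) without that library.

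**Figure D4:**
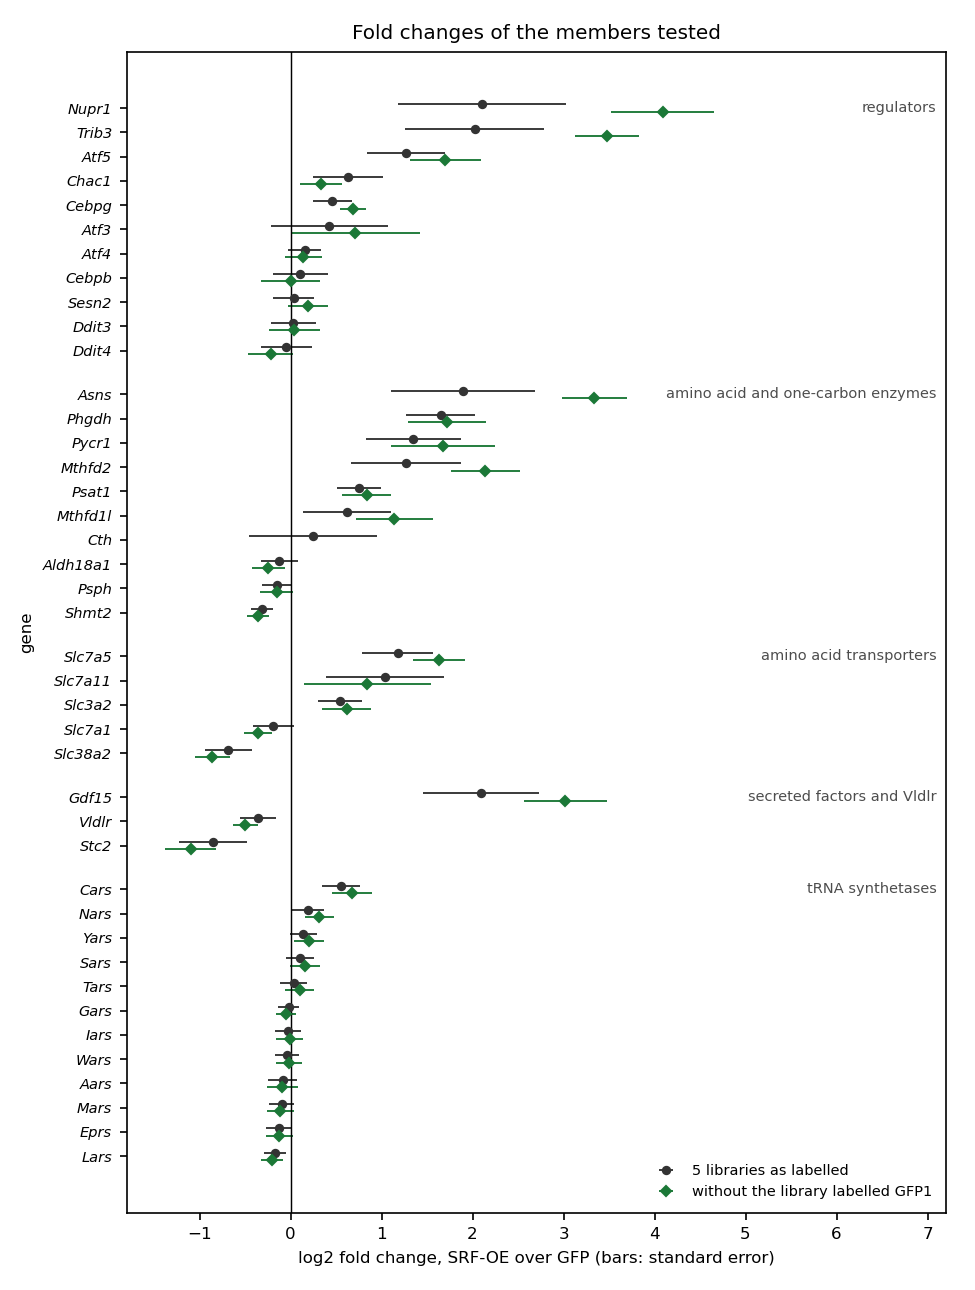
Log2 fold change of SRF-OE over GFP for the 41 members tested, by role group, with the 5 libraries as labelled (dark circles) and without the library labelled GFP1 (green diamonds); bars are standard errors. Nupr1, Trib3, Asns, Mthfd2 and Gdf15 move furthest from 0 when that library is left out, and 11 of the 12 synthetases stay between -0.20 and 0.32 in both fits.

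The 12 tRNA synthetases, which charge tRNAs with their amino acids in the cytosol, made up the group with the smallest differences. Their median log2 fold change was -0.02 with 5 libraries and -0.02 without the library labelled GFP1, and 0 of 12 were called by edgeR in either direction in either fit. With 5 libraries 1, Cars, was higher at an unadjusted p under 0.05 (6.35% of all genes), and 5 of 12 had a value above 0 (53.3%). Cars, for cysteine, had the largest value. It was at 30.0 and 45.3 CPM in SRF-OE, 29.4 CPM in the library labelled GFP1, and 24.4 and 23.1 CPM in GFP 2 and GFP 3. SRF-OE 2 and the library labelled GFP1 differed by less than 1 CPM, and the log2 fold change was 0.56 ± 0.21 (SE, adjusted p = 0.357), or 0.67 without the library labelled GFP1, 0.22 without SRF-OE 3 and 0.82 without SRF-OE 2.

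Nars, for asparagine, was next, at 124 and 163 CPM in SRF-OE, 147 CPM in the library labelled GFP1, and 115 and 117 CPM in GFP 2 and GFP 3. The library labelled GFP1 lay between the SRF-OE libraries, and the log2 fold change was 0.19 ± 0.18 (SE), or 0.32 without the library labelled GFP1. At the lower end, Lars, for leucine, was at 80.8 and 89.8 CPM in SRF-OE, 91.1 CPM in the library labelled GFP1, and 95.6 and 101 CPM in GFP 2 and GFP 3. Its groups did not overlap, with a log2 fold change of -0.17 ± 0.12 (SE). Eprs, the bifunctional enzyme for glutamate and proline, was at 143 and 182 CPM in SRF-OE, 178 CPM in the library labelled GFP1, and 174 and 182 CPM in GFP 2 and GFP 3. Its GFP libraries lay close together and the SRF-OE libraries apart, with a log2 fold change of -0.13 ± 0.14 (SE).

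The remaining synthetases, Aars, Gars, Iars, Mars, Sars, Tars, Wars and Yars, had log2 fold changes from -0.10 in Mars to 0.14 in Yars. All 12 synthetases had a lower CPM in SRF-OE 2 than in SRF-OE 3. Gars was among the steadiest members, with 114 to 126 CPM over the 5 libraries. Aars shares 1326 bp of exon with Exosc6 on the same strand, so its count is uncertain, as are those of Mars and Yars, which overlap other genes by 68 and 30 bp.

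In the lists of other genes that follow, calls are those of edgeR, and counts at an unadjusted p under 0.05 are those of the 5 libraries. Over all genes in the 5 libraries, 6.35% were higher and 7.59% lower at that p, and 53.3% had a value above 0. Without the library labelled GFP1, 1.98% of all genes were called higher and 0.97% lower. DESeq2 called genes in more of these lists. Without the library labelled GFP1 it called 5 other ATF4 targets, 3 NRF2 targets, 5 p53 targets and 5 fibroblast markers higher, and 1 other ATF4 target lower. It also called 2 mitochondrial synthetases, 2 ER genes, 2 other amino acid transporters and 2 smooth muscle markers higher. Higher too were 1 gene of the eIF2 list and 1 endothelial marker. Lower, beside those given further on, were 2 mitochondrial synthetases and 1 gene each of the eIF2, other transporter, immediate early and smooth muscle lists. Its shares over all genes in that fit were 6.29% higher and 6.14% lower. With 5 libraries it called 1 mitochondrial synthetase higher (0.943% of genes) and 1 smooth muscle marker lower (18.3%). Medians of log2 fold changes are given for the 5 libraries and, in parentheses, without the library labelled GFP1. Of 8 cytosolic synthetases outside the members, 0 were called in either fit, 0 had an unadjusted p under 0.05 and the median log2 fold change was -0.09 (-0.08), with -0.23 in Qars, -0.22 in Kars and 0.18 in Rars. Of 17 synthetases of mitochondria, 0 were called in either fit, 2 were higher and 6 lower at an unadjusted p under 0.05, and 15 had a value below 0, with a median of -0.25 (-0.39). The 2 genes above 0 were Ears2 at 0.71 ± 0.20 (SE) and Lars2 at 0.71 ± 0.27 (SE). Lars2 alone took 6500 to 13510 of the 7288 to 14110 CPM summed over the 17 genes. Its level per length was 3059 to 7230 over the libraries, beside 69.6 to 84.6 for Iars2. Since the multi-mapping setting of the counting is not stated, the count of Lars2 and its fold change are uncertain.

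**Figure D5:**
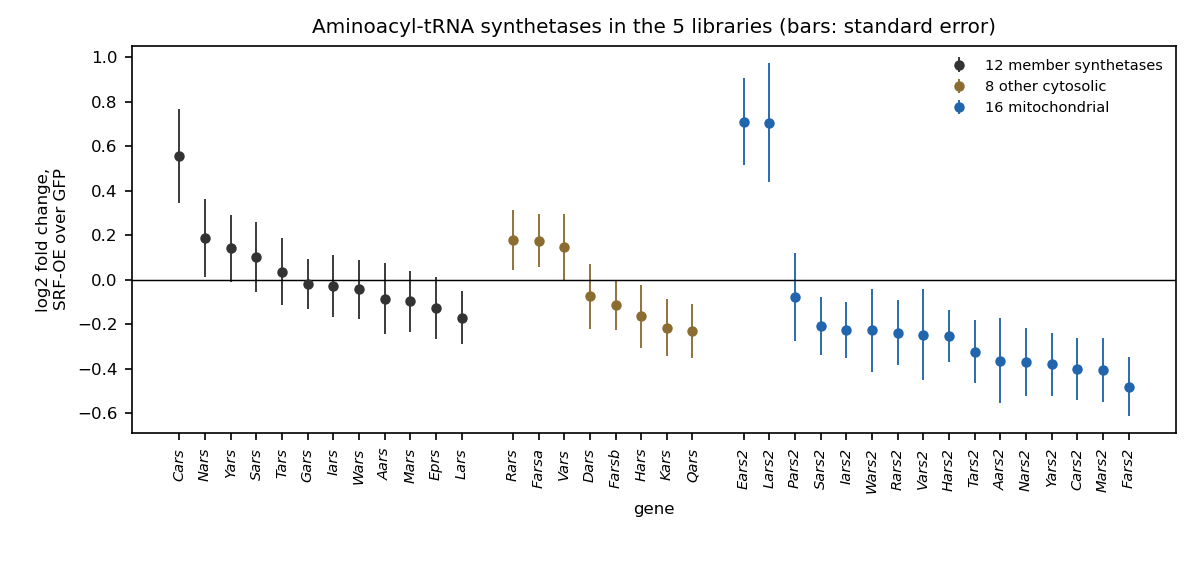
Log2 fold change of SRF-OE over GFP with the 5 libraries for the 12 member synthetases, 8 other cytosolic synthetases and 16 of the 17 mitochondrial synthetases, each group sorted by value; bars are standard errors. Cars, at 0.56, lies above the other cytosolic genes, which run from -0.23 to 0.19, and all mitochondrial genes shown but Ears2 and Lars2 lie below 0.

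Levels were compared between members per length. Slc38a2 was the highest on average, at a level per length of 211 (142 to 276 over the libraries), followed by Atf4 at 113, whose highest library, at 144, reached into that range. Nars (98.1), Gars (96.9) and Atf3 (69.4) came next, then Eprs (68.5) and Vldlr (62.1). Of the 6 members that rose without the library labelled GFP1, Asns was at 18.2, Gdf15 at 13.8, Mthfd2 at 13.4, Slc7a5 at 9.05, Nupr1 at 7.04 and Trib3 at 3.91, beside a median of 16.2 over the members. At the bottom were Fgf21 (0.115) and Slc7a11 (0.0834). The ratio of Asns to Aars, both enzymes known as ATF4 targets, was 0.589 and 0.838 in SRF-OE, 0.418 in the library labelled GFP1, and 0.0697 and 0.0670 in GFP 2 and GFP 3 on the same scale. Since Aars shares 1326 bp of exon with Exosc6, the size of this ratio is uncertain. The ratio of Trib3 to Atf4 was 0.0557 and 0.0582 in SRF-OE, 0.0352 in the library labelled GFP1, and 0.00627 and 0.00525 in GFP 2 and GFP 3.

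Upstream of the members, the list of 17 genes for the eIF2 kinases, the eIF2 and eIF2B subunits and the phosphatase subunits had 0 genes called in either fit, 0 higher and 1 lower at an unadjusted p under 0.05, and a median log2 fold change of 0.04 (0.04). Ppp1r15a, the stress-induced phosphatase subunit GADD34 that restores translation, was at 54.5 and 90.4 CPM in SRF-OE, 55.0 CPM in the library labelled GFP1, and 33.6 and 53.05 CPM in GFP 2 and GFP 3, with a log2 fold change of 0.62 ± 0.29 (SE). Eif2s2, the beta subunit of eIF2, had 0.58 ± 0.31 (SE) and Eif2b4, of the exchange factor, -0.42 ± 0.14 (SE).

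Of 14 other ATF4 targets 12 were tested, with a median log2 fold change of 0.44 (0.69), and 1, Slc6a9, rose without the library labelled GFP1, while with 5 libraries 0 were called and 6 were higher and 1 lower at an unadjusted p under 0.05. Slc6a9, a glycine transporter, was at 4.34 and 6.86 CPM in SRF-OE, 1.71 CPM in the library labelled GFP1, and 0.413 and 0.553 CPM in GFP 2 and GFP 3. Its log2 fold change was 2.62 ± 0.61 (SE, adjusted p = 0.353), and 3.56 ± 0.44 (SE, adjusted p = 0.0423) with the library labelled GFP1 left out. Slc7a3, another arginine carrier, had 2.38 ± 0.93 (SE), and 4.22 (adjusted p = 0.0502) without that library, and Slc1a4, a carrier of alanine and serine, had 0.97 ± 0.39 (SE). With the library labelled GFP1 left out, Slc6a9 and Slc7a3 passed the filter on low counts only through the SRF-OE libraries. With the 5 libraries Slc7a3 passed it only with their help.

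Of 12 other amino acid transporters, Slc7a8, the LAT2 carrier, rose without the library labelled GFP1, with a log2 fold change of 4.03 ± 0.57 (SE, adjusted p = 0.0473) beside 1.94 ± 1.03 (SE) with 5 libraries, and 0 others were called. At an unadjusted p under 0.05, 1 was higher and 1 lower. Slc43a1 had 1.38 and Slc7a6 0.72 with 5 libraries, and Slc43a1 passed the filter on low counts only with the help of the SRF-OE libraries. Of 17 other folate, glycine and proline enzymes 15 were tested, 0 were called in either fit, 0 were higher and 1 lower at an unadjusted p under 0.05, and the median was -0.20 (-0.09), with 0.69 in Aldh1l1, -0.50 in Mthfs and 0.45 in Shmt1.

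Stress responses next to the ISR were followed by list. Of 19 ER chaperones and degradation genes, 0 were called in either fit, 2 were higher and 0 lower at an unadjusted p under 0.05, and the median log2 fold change was 0.08 (0.08), with 1.00 in Sdf2l1, 0.63 in Edem1 and 0.61 in Derl3. All 10 mitochondrial chaperones and proteases had values below 0 with 5 libraries, 0 were called in either fit, 4 were lower at an unadjusted p under 0.05, and the median was -0.27 (-0.32), with -0.57 in Dnaja3, -0.44 in Afg3l2 and -0.44 in Hspa9. DESeq2 called 4 of them lower with 5 libraries (18.3% of genes) and 2 without the library labelled GFP1 (6.14%). All 8 NRF2 targets had values above 0, 0 were called in either fit, 0 had an unadjusted p under 0.05, and the median was 0.29 (0.61), with 0.90 in Hmox1, 0.69 in Srxn1 and 0.53 in G6pdx. Of 9 p53 targets 1, Cdkn1a, rose without the library labelled GFP1, and with 5 libraries 0 were called and 3 were higher at an unadjusted p under 0.05.

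Cdkn1a, which encodes the cell cycle inhibitor p21, was at 137.5 and 319 CPM in SRF-OE, 119 CPM in the library labelled GFP1, and 53.4 and 50.8 CPM in GFP 2 and GFP 3. Its log2 fold change was 1.62 ± 0.47 (SE, adjusted p = 0.353), and 2.14 (adjusted p = 0.0499) with the library labelled GFP1 left out. Pmaip1 had 2.25 ± 1.14 (SE) and Phlda3 1.13 ± 0.54 (SE) with 5 libraries. Pmaip1 passed the filter on low counts only with the help of the SRF-OE libraries, so its value is a description only. Of 14 immediate early and heat shock genes, which dissociation of the heart is known to induce, 0 were called in either fit, 4 were lower at an unadjusted p under 0.05, and 10 had values below 0. Fos was at 20.4 and 24.7 CPM in SRF-OE, 45.7 CPM in the library labelled GFP1, and 38.5 and 75.2 CPM in GFP 2 and GFP 3, with a log2 fold change of -1.23 ± 0.30 (SE, adjusted p = 0.353). Fosb had -1.47 and Hspa1b 1.05.

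Markers of other cell types also differed between libraries. The number of such cells that a sort carries along, their RNA per cell and expression of these genes in CMs cannot be told apart in bulk samples. Over 11 endothelial markers the summed level was 850 and 331 CPM in SRF-OE 644 CPM in the library labelled GFP1, and 356 and 363 CPM in GFP 2 and GFP 3, with 11 of 11 log2 fold changes above 0, 0 called in either fit and 0 with an unadjusted p under 0.05. Over 9 fibroblast markers the sum was 917 and 459 CPM in SRF-OE, 496 CPM in the library labelled GFP1, and 391 and 333 CPM in GFP 2 and GFP 3. All 9 had values above 0, and 5 were higher at an unadjusted p under 0.05 (8 without the library labelled GFP1), while Ddr2 rose without the library labelled GFP1 (1.88 ± 0.21, SE, adjusted p = 0.0423). Over 10 leukocyte markers it was 40.7 and 14.7 CPM in SRF-OE, 32.3 CPM in the library labelled GFP1, and 15.8 and 13.5 CPM in GFP 2 and GFP 3, with 0 of 8 tested called in either fit and 0 with an unadjusted p under 0.05.

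Over 6 smooth muscle markers the sum was 975.4 and 757 CPM in SRF-OE, 837 CPM in the library labelled GFP1, and 1377 and 1952 CPM in GFP 2 and GFP 3. Tagln rose (2.92 ± 0.46, SE, adjusted p = 0.0473) and Acta2 fell (-1.45 ± 0.26, SE, adjusted p = 0.0499) with the library labelled GFP1 left out. Of 5 erythroid markers found in the table, Hba-a1 and Hba-a2 were at 0 in every library, and the sum was 6.88 and 5.42 CPM in SRF-OE, 0.713 CPM in the library labelled GFP1, and 1.38 and 3.55 CPM in GFP 2 and GFP 3. Both SRF-OE libraries lay above all GFP libraries, and Alas2, the first enzyme of erythroid heme synthesis, had a log2 fold change of 2.07 ± 0.48 (SE, adjusted p = 0.353). Alas2 passed the filter on low counts only through the SRF-OE libraries, so its value is a description only. All 10 cardiomyocyte markers had log2 fold changes below 0, with a median of -0.47 (-0.60), 0 were called by edgeR in either fit, and 1 was lower at an unadjusted p under 0.05. DESeq2 called 3 of them lower with 5 libraries (18.3% of genes) and 6 without the library labelled GFP1 (6.14%). Their sum was 108800 and 96820 CPM in SRF-OE, 115100 CPM in the library labelled GFP1, and 149600 and 169700 CPM in GFP 2 and GFP 3. The part of these cell types in the values of the members was not tested.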

How the data were processed

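RNA-seq counts per gene were available for GFP+ CMs sorted at P14, in SRF-OE (2 libraries) and GFP (3 libraries), of 6 labelled libraries. The authors made cDNA with SMART-Seq v4 and libraries with Nextera XT, sequenced single-ended reads, aligned them to mm10 with STAR 2.5.3a and counted them with FeatureCounts of Subread 1.5.2, per the labels and methods. They deposited raw counts without normalization. SRF-OE replicate 1 has a column of other values, with 0 zeros, within 5% of the annotated exon length for 52.3% of the 20892 genes that could be matched. These were used as gene lengths only. Columns were assigned by name, 0 were left unused, and no library was moved to another group by its Srf level. Strand and multi-mapping settings are not given in the sources used here.

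All genes were fitted with edgeR 4.0.16 (R 4.3.3), by filterByExpr, TMM scaling and the quasi-likelihood F test, followed by Benjamini-Hochberg adjustment over all genes tested at a cutoff of 0.05. The design was written for 6 libraries and could use 5. SE is the standard error of the log2 fold change. CPM values use the TMM factors of the 5 libraries. Positions and exon overlaps are from the GENCODE basic annotation of GRCm38, matched by symbol, and promoters from RefSeq (GRCm38.p6), where Cth, Slc7a5, Cars, Lars, Nars and Wars had no entry. The fits were tested on simulated counts.

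The members, pathway lists, markers and motifs were chosen with earlier results of these data known. All members are named, with a value in every library for 12 fixed genes and for the extremes of each role group. Other genes are named where called or among the 3 largest differences of their list. Alternatives were DESeq2 1.42.0 (filtering target 0.05), DESeq2 size factors, upper quartile scaling, no filter, a minimum of 10 counts in each library, a replicate block, leaving libraries out singly, annotated gene lengths and a longer motif. The same settings on 4 libraries, without the library labelled GFP1, were added after the data were seen. Some sequences and genes of the lists are not reported here.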

Additional observations from a re-analysis of the deposited data

How the results depend on the processing

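With the 5 libraries, edgeR called 0 genes and 0 members with DESeq2 size factors, with upper quartile scaling, with no filter on low counts and with at least 10 counts in every library. DESeq2 called 11 genes higher and 213 lower, with 1 member lower, having given an adjusted p to 1167 genes. Leaving out 1 library gave 0 to 265 genes higher, 0 to 130 lower, 0 to 6 members higher and 0 to 0 lower, and every call came without the library labelled GFP1. The median log2 fold change of the members ranged from -0.0253 to 0.2962 over those fits. Leaving out an SRF-OE library leaves 1, which is then assumed to vary like GFP.

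A replicate block by library number called 582 genes higher (4.23%) and 432 lower (3.14%), among them 8 members higher and 1 lower. Whether the numbers pair the libraries is not known. SRF-OE and GFP share numbers 2 and 3 only, and nothing in the labels ties libraries of 1 number together. Deviations of same-numbered libraries correlated across genes at 0.224 in 4 libraries, and at 0.41 and -0.086 in 5. The library labelled GFP1 is alone with its number, so the block takes it out of the comparison, and number and sex by Xist cannot be told apart.

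Without the library labelled GFP1, the 6 members called higher (1.98% of all genes) became 6 with DESeq2 size factors (2.46%), 2 with upper quartile scaling (0.657%), 13 with no filter (7.75%), 1 with at least 10 counts in every library (0.453%), 8 with DESeq2 (6.29%) and 8 with the block (4.08%), and the 0 called lower became 3 with no filter (6.09%), 1 with DESeq2 (6.14%) and 1 with the block (2.93%). Of 41 members, 24 had the same sign in every setting that tested them, 17 above 0 and 7 below, and none of the 17 others was past the cutoff in either fit. The motif in its longer form was found in 8 member promoters instead of 14. With annotated lengths the median level per length was 16.4 in place of 16.2. The cause of these shifts was not tested. Low counts limit Nupr1, Trib3, Phgdh, Pycr1, Cth, Slc7a11 and Fgf21.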
